A study of Homo sapiens with 2 samples.

Results

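The regulators of the passage from G1 into S phase were examined as a group of 10 genes out of 62700 in the gene table: the cyclins CCND1, CCND2, CCND3 and CCNE1, the kinases CDK4 and CDK6, the pocket protein gene RB1 and the inhibitors CDKN1B, CDKN2A and CDKN2C. They were listed by name, with earlier results of these data known, and each matched 1 gene by symbol. The data are RNA-seq of polyadenylated RNA from TCam-2 cells, a line established from a human seminoma, which is a germ cell tumour of the testis, transduced with a construct for DDX53-FLAG, the RNA helicase DDX53 with a FLAG tag. The 1 group holds 2 replicate libraries. The promoter of the construct, and whether the cells are a clone, are not given in the sources used here. The design names cells with a GFP-FLAG construct and untransduced cells as controls. The control libraries were not used here and no effect of DDX53 was computed. The values below compare genes, transcripts and the replicates.

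In the textbook scheme, growth signals raise a D-type cyclin, which binds CDK4 or CDK6. The active kinase phosphorylates RB1, which then releases E2F transcription factors, and these switch on CCNE1 and the genes of DNA replication. Cyclin E with CDK2 completes the phosphorylation. INK4 proteins (the products of CDKN2A to CDKN2D) bind CDK4 and CDK6 and keep the D-type cyclins off them, and CIP/KIP proteins such as the product of CDKN1B bind the assembled complexes. In germ cell tumours gain of the short arm of chromosome 12, which carries CCND2 and CDKN1B, is a common change.

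The libraries held 24137664 reads in genes in replicate 1 and 22198929 in replicate 2. DDX53 had 146 and 147 reads, which without a control library does not check the label. All 7 markers of seminoma and the germ cell line were detected, with a summed 4645 and 4605 CPM (reads scaled to the library's total in genes). Of 3 markers of embryonal carcinoma 2 were detected, with a summed 133 and 106 CPM. Most of this came from DNMT3B, at 124 and 98.4 CPM, and SOX2 had 24 reads in each library. Of 7 markers of fibroblasts, endothelium and blood 3 were detected, with a summed 470 and 442 CPM, nearly all from the collagen gene COL1A2, and the blood markers PTPRC and CD3E had no read in either library.

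Some results turn on which exons were joined, so the junctions that tell the transcripts apart are shown here as 30 bases each, 5′ to 3′, with the exon after the junction in capitals. They were read from GENCODE 29 transcripts on GRCh38. In CDKN2A, on the minus strand of chromosome 9, different first exons join the same second exon, which starts at 21971208. Exon 1 beta ends at 21994139 and exon 1 alpha at 21974678.
CDKN2A-214 (exon 1 beta to exon 2): ttcctagaagaccagGTCATGATGATGGGC
CDKN2A-201 (exon 1 alpha to exon 2): cggaggccgatccagGTCATGATGATGGGC
The capitals are identical, but the reading frame is not. In CDKN2A-214, which encodes ARF, 193 coding bases precede the junction and the first base of exon 2 is at codon position 2. In CDKN2A-201, which encodes the INK4a protein, 150 coding bases precede it and the same base is at codon position 1. The reading frames hold 132 codons in CDKN2A-214 and 156 codons in CDKN2A-201. In CDK4, on the minus strand of chromosome 12, exon 2 ends at 57751500. It joins exon 3, which starts at 57751342, in CDK4-201, and the next exon, which starts at 57751090, in CDK4-215.
CDK4-201 (exon 2 to exon 3): tcccaatgttgtccgGCTGATGGACGTCTG
CDK4-215 (exon 2 to the exon after the skipped one): tcccaatgttgtccgGATCTGATGCGCCAG
The skipped exon has 136 bases, which leaves a remainder of 1 on division by 3. The annotated reading frame of CDK4-215 ends after 74 codons, against 303 in CDK4-201, and GENCODE types it as a target of nonsense-mediated decay. In CCND2, on the plus strand of chromosome 12, the third exon ends at 4278919. It joins an exon at 4288842 in CCND2-201 and an exon at 4285275 in CCND2-204, a transcript of 322 bases annotated without a coding sequence.
CCND2-201 (exon 3 to exon 4): ctctgtgtgccaccgACTTTAAGTTTGCCA
CCND2-204 (the same exon end to its own last exon): ctctgtgtgccaccgGAGGAAGGATCTCAG

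Each of the 10 genes reached 1 CPM in both libraries, the threshold used for detection, against 61.7% of the genes of protein-coding type and 21.7% of all genes. Levels of different genes were compared per length, as TPM (salmon's transcript abundance, scaled for length and to a fixed total in each library) summed over a gene's matched transcripts. Between the highest and the lowest of the 10 this level differed 1151-fold. CDK4 was highest and CCND2 followed, while RB1 and CDK6 were lowest. The median of the 10 was 14.4 TPM, and that of the 13380 detected genes with TPM was 12.4 TPM. Neighbours in the order by TPM did not overlap over the 2 libraries, with the exception of CDKN2A and CDKN2C. By reads per kilobase of merged exons CDKN2A, at place 9 of the 10, lay below RB1, at place 8. In a bulk sample, fewer cells with a transcript and less of it per cell cannot be told apart.

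**Figure D1:**
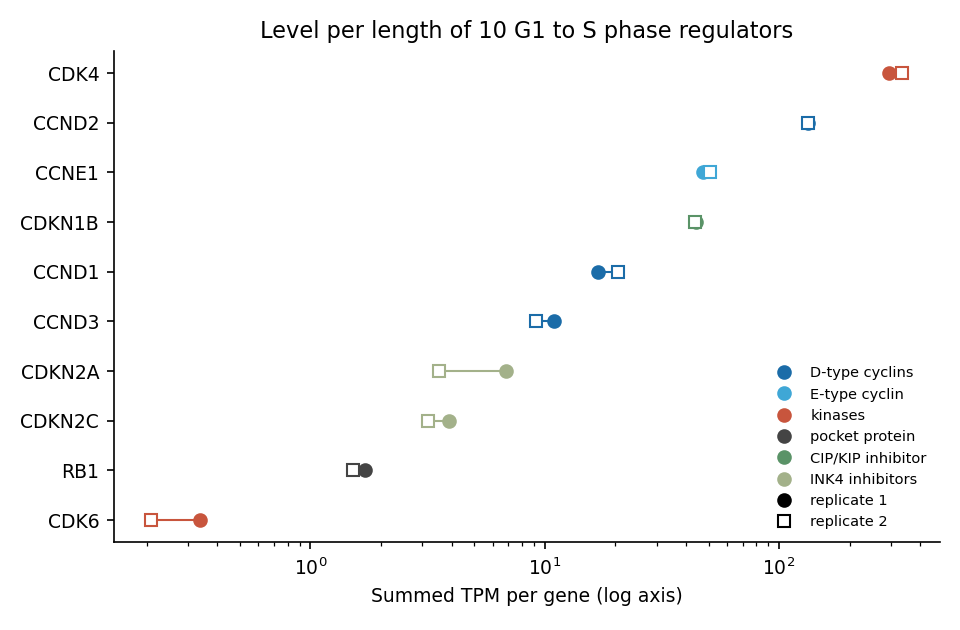
Summed TPM per gene (log axis) of the 10 regulators, with filled circles for replicate 1, open squares for replicate 2, a line between them and colours for roles. CDK4 and CCND2 lie above 100 TPM, RB1 lies under 2 TPM and CDK6 under 1 TPM, and the replicates of CDKN2A lie widest apart.

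The D-type cyclins differed in level. CCND2 (ENSG00000118971.9, chromosome 12, 4273772 to 4305350) had 10761 reads in replicate 1 and 9504 in replicate 2, or 446 and 428 CPM, and per length 132.5 and 132.3 TPM. It was higher than 91.9% of the detected genes. CCND1 (ENSG00000110092.4, chromosome 11, 69641087 to 69654474), the D-type cyclin best known for its induction by growth factors, had 1302 and 1486 reads and 16.8 and 20.5 TPM. CCND3 (ENSG00000112576.13, chromosome 6, 41934933 to 42050357), the D-type cyclin of many lymphoid and differentiating cells, had 357 and 280 reads and 10.9 and 9.16 TPM. The ranges of the 3 genes did not overlap. Of the 3 genes' summed TPM, CCND2 held 82.7% in replicate 1 and 81.7% in replicate 2, CCND1 held 10.5% and 12.6%, and CCND3 held 6.82% and 5.66%. With reads per kilobase of merged exons, the mean share of CCND3 was 3.11% in place of 6.24%. Of the merged exons of CCND2, 13.8% by length lie in exons of AC008012.1 on the same strand, so reads there cannot be told apart, and 10.3% of those of CCND1 lie in exons of LTO1 on the opposite strand. The log2 ratio of reads to the number predicted from TPM was -0.07 in replicate 1 and -0.06 in replicate 2 for CCND2. For CCND1 it was 0.17 and 0.18.

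CCNE1 encodes cyclin E1, the partner of CDK2 and a known E2F target. The gene (ENSG00000105173.14, chromosome 19, 29811898 to 29824308) had 1493 and 1480 reads, or 61.9 and 66.7 CPM, and 47.3 and 50.9 TPM. Its level per length was 2.86 times that of its paralog CCNE2 in replicate 1 and 2.78 times in replicate 2. CCNE2 and the other paralogs set beside a listed gene were picked for their family, outside the rule for named genes.

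The kinases that bind D-type cyclins stood at opposite ends of the order. CDK4 (ENSG00000135446.17, chromosome 12, 57747727 to 57756013) had 6733 and 6773 reads, or 279 and 305 CPM, and 295 and 335 TPM, above 96.7% of the detected genes. CDK6 (ENSG00000105810.10, chromosome 7, 92604921 to 92836594), which can take the place of CDK4 in the complex, had 69 and 44 reads, or 2.86 CPM (95% Wilson interval, 2.26 to 3.62) and 1.98 CPM (1.48 to 2.66). Its 0.338 and 0.209 TPM were above 1.84% of the detected genes. The level of CDK4 was 872 times that of CDK6 in replicate 1 and 1603 times in replicate 2, with 69 and 44 reads of CDK6 behind it. With reads per kilobase of merged exons the ratio was 378 and 596. Of the merged exons of CDK4, 43.2% by length lie in exons of TSPAN31 on the opposite strand, and whether the counting used strand is not given in the sources used here. CDK4 had close to the number of reads its TPM predicts, with log2 ratios of -0.04 and -0.05.

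RB1, the substrate of these kinases and the gatekeeper of E2F, was low. The gene (ENSG00000139687.16, chromosome 13, 48303726 to 48599436) had 136 and 119 reads, or 5.63 CPM (95% Wilson interval, 4.76 to 6.66) and 5.36 CPM (4.48 to 6.41). Its 1.71 and 1.52 TPM were above 13.3% of the detected genes. The other pocket protein genes, RBL1 and RBL2, whose products bind chiefly other E2F members, were higher in both libraries. RBL1 was at 3.31 and 3.50 times the level of RB1, and RBL2 at 4.95 and 5.66 times. RB1 thus held 10.8% and 9.84% of the summed TPM of the 3 pocket protein genes. All TPM of RB1 lay in RB1-201, the transcript of 928 codons, out of 9 matched transcripts.

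Among the inhibitors, CDKN1B was the highest. CDKN1B (ENSG00000111276.12, chromosome 12, 12715058 to 12722371), a CIP/KIP gene whose protein is turned over through SKP2, had 1773 and 1709 reads, or 73.5 and 77.0 CPM, and 44.3 and 43.6 TPM. It held 60.0% and 56.8% of the summed TPM of the 3 CIP/KIP genes CDKN1A, CDKN1B and CDKN1C. CDKN2A (ENSG00000147889.18, chromosome 9, 21967753 to 21995301) had 75 and 51 reads, or 3.11 CPM (95% Wilson interval, 2.48 to 3.89) and 2.30 CPM (1.75 to 3.02), and 6.80 and 3.53 TPM. CDKN2C (ENSG00000123080.12, chromosome 1, 50960745 to 50974633) had 115 and 99 reads, or 4.76 and 4.46 CPM, and 3.90 and 3.18 TPM. The levels of these INK4 genes overlapped, so their order was not resolved. By reads per kilobase of merged exons CDKN2A fell from place 7 of the 10 to place 9, and CCNE1 and CDKN1B changed places. Among all INK4 genes the highest was CDKN2D, with 68.7% and 76.7% of their summed TPM. CDK4 and CDK6 together had 8.21 and 10.5 times the summed TPM of the 4 INK4 genes. Both of these sums take all TPM of CDKN2A. Its transcripts with exon 1 alpha, the INK4a form, had 0.453 and 0.218 TPM of the gene's 6.80 and 3.53. Taking all TPM of CDKN2A lowers the share of CDKN2D and the ratio. The sum for CDK4 likewise takes all its transcripts, which raises the ratio. Among them is CDK4-215, typed as a target of nonsense-mediated decay, with 49.9 and 53.4 TPM. With reads per kilobase of merged exons the ratio was 6.08 and 6.75, and the share of CDKN2D was 82.6% and 83.3%.

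The study also addressed splicing, so the transcripts of each gene were compared. Of 90 matched transcripts of the 10 genes 40 had TPM above 0 in a library. RB1, CDK6 and CDKN1B had TPM in a single transcript each, and CCND1 had at least 98.1% in CCND1-201. The top transcript was the same in both libraries for each of the 10 genes. The depth per transcript is unknown, so these shares carry no interval.

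CDK4 was spread over the most transcripts, 14 of 15. The full-length CDK4-201 had 146 and 152 TPM, 49.4% and 45.2% of the gene. CDK4-215, the exon-skipping transcript whose junction is shown above, was next by mean with 49.9 and 53.4 TPM, or 16.9% and 15.9%. CDK4-203, which lacks exon 2 with its start codon and whose 3′ end is annotated as incomplete, had 39.9 and 56.5 TPM. Transcripts with both exon 2 and exon 3 held 68.3% and 66.4% of the gene's TPM.

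**Figure D2:**
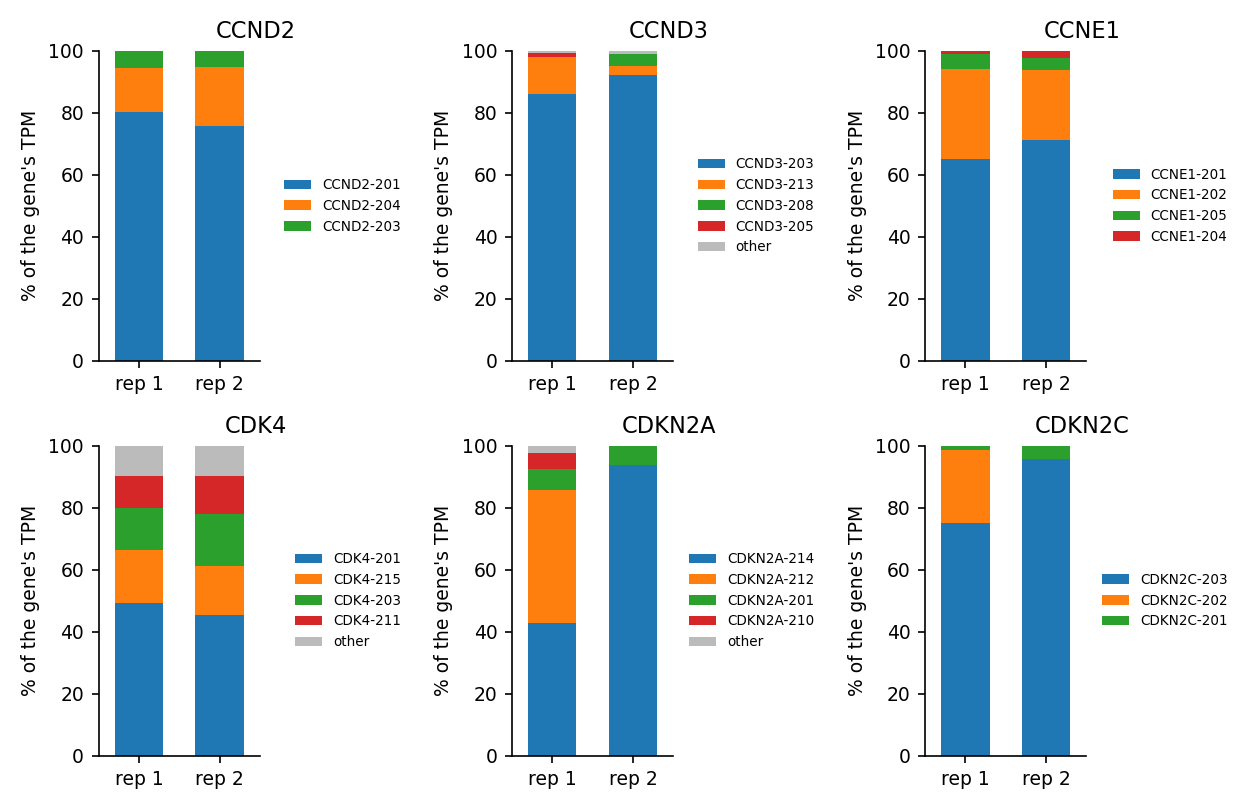
Share of each gene's summed TPM (percent, stacked to 100) by transcript in replicate 1 and replicate 2, for the 6 regulators with over 5% of TPM outside the top transcript in a library. The 4 transcripts with the highest mean are coloured and the rest are grey, and CDKN2A shows the widest shift, with CDKN2A-214 at 42.9% in replicate 1 and 93.8% in replicate 2.

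CCND2 and CCNE1 each had a second form by TPM. In CCND2, CCND2-201 of 289 codons had 106 and 100 TPM, while the short CCND2-204 had 18.6 and 24.97 TPM, 14.0% and 18.9% of the gene. CCND2-204 has 322 bases against 6480 in CCND2-201. TPM is per length, so its share of the gene's reads is far smaller than its share of TPM. CCNE1-201 of 410 codons held 65.0% and 71.2% of the TPM of CCNE1. CCNE1-202, which is annotated with another start codon and 350 codons, held 28.98% and 22.67%. CCND3-203 of 292 codons held 86.2% and 92.2% of the TPM of CCND3. The second form, CCND3-213 of 195 codons, had 1.28 and 0.270 TPM.

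In CDKN2A the transcripts with exon 1 beta, of the ARF form, were above those with exon 1 alpha, of the INK4a form, in both libraries. Transcripts with exon 1 beta, the junction of CDKN2A-214 shown above, had a summed 3.28 and 3.31 TPM. Transcripts with exon 1 alpha, among them CDKN2A-201, had 0.453 and 0.218 TPM. The gap between these classes was thus larger than the difference of either class between the libraries. The gene's summed TPM, 6.80 in replicate 1 and 3.53 in replicate 2, differed between the libraries by more than this gap. The remaining TPM of CDKN2A was almost all in CDKN2A-212, which holds neither first exon and begins upstream of exon 2, in sequence that is intronic in CDKN2A-214 and CDKN2A-201. It had 2.92 TPM in replicate 1 and is listed at 0 in replicate 2. CDKN2A-212 is annotated as protein-coding with 105 codons, and its frame was not assigned to ARF or INK4a here. The order above thus covers only transcripts with exon 1 beta or exon 1 alpha, and leaves out this coding transcript. Because of CDKN2A-212, the share of CDKN2A-214 was 42.9% and 93.8% while the level of CDKN2A-214 was 2.92 and 3.31 TPM. The gene had 75 and 51 reads in all, and 7.88% of its exonic length overlaps the antisense gene CDKN2B-AS1.

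**Figure D3:**
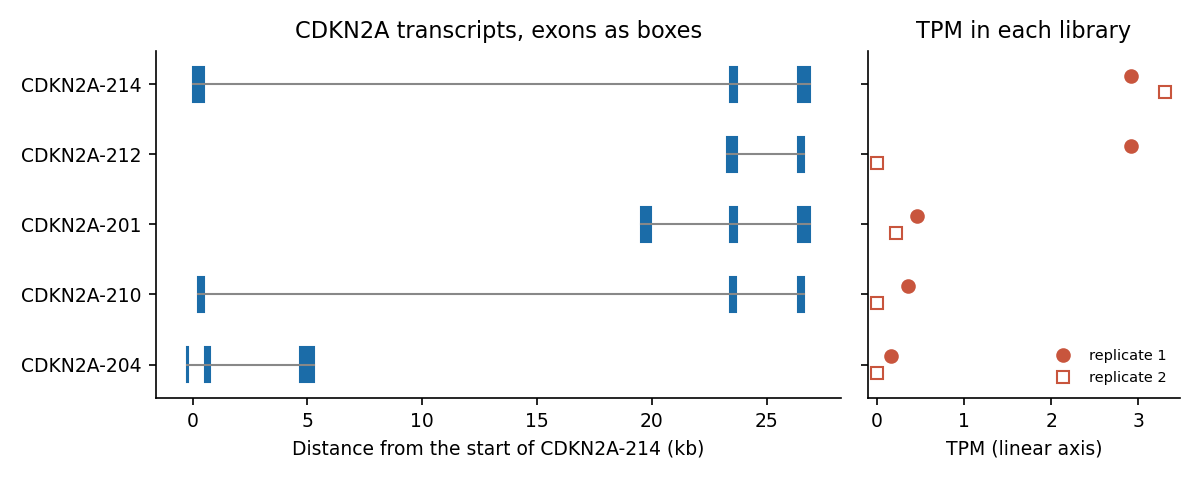
Left, exons (boxes) of the 5 CDKN2A transcripts with TPM above 0, placed by distance from the start of CDKN2A-214 in kb. Right, their TPM in replicate 1 (filled circles) and replicate 2 (open squares): CDKN2A-214 has 2.92 and 3.31 TPM, while CDKN2A-212 has 2.92 TPM in replicate 1 and is listed at 0 in replicate 2.

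The transcripts of CDKN2C share 1 reading frame of 168 codons and differ in their first exons. CDKN2C-203 had 2.93 and 3.04 TPM. CDKN2C-202 had 0.920 TPM in replicate 1 and is listed at 0 in replicate 2, so the share of CDKN2C-203 was 75.1% and 95.7%.

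The levels were set against 50 further genes of the G1 to S passage, of which 49 were detected. The exception, CDK3, had 1 and 3 reads but 5.36 and 5.74 TPM, over 4-fold fewer reads than its TPM predicts, so its level is uncertain. The 18 genes of replication origins and S phase, many of them E2F targets, had the highest median, 67.8 TPM, from POLA1, the catalytic subunit of DNA polymerase alpha, at 11.9 ± 0.439 TPM to PCNA, the sliding clamp of the polymerases, at 412 ± 10.5 TPM (SD, n = 2 each). The 12 genes of pocket proteins, E2F factors and their DP partners had a median of 22.7 TPM. They ran from E2F2 at 4.26 ± 0.610 TPM to TFDP1 at 104 ± 2.89 TPM (SD, n = 2 each). The 9 other cyclins, kinases and activators had a median of 24.0 TPM, with CCNA1 lowest at 1.51 ± 0.282 TPM and CDK7 highest at 90.9 ± 8.90 TPM (SD, n = 2 each). The 4 other inhibitor genes had a median of 15.7 TPM, with CDKN2B, the neighbour of CDKN2A, lowest at 0.654 ± 0.122 TPM and CDKN2D highest at 24.62 ± 0.0952 TPM (SD, n = 2 each). Among 7 genes of ubiquitin ligases that act at this transition the median was 15.9 TPM, from FBXO4 at 1.71 ± 0.0701 TPM to SKP1 at 514 ± 17.1 TPM (SD, n = 2 each). SKP1 is uncertain, since its 228 and 271 reads were far below the 5599 and 5498 its TPM predicts.

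**Figure D4:**
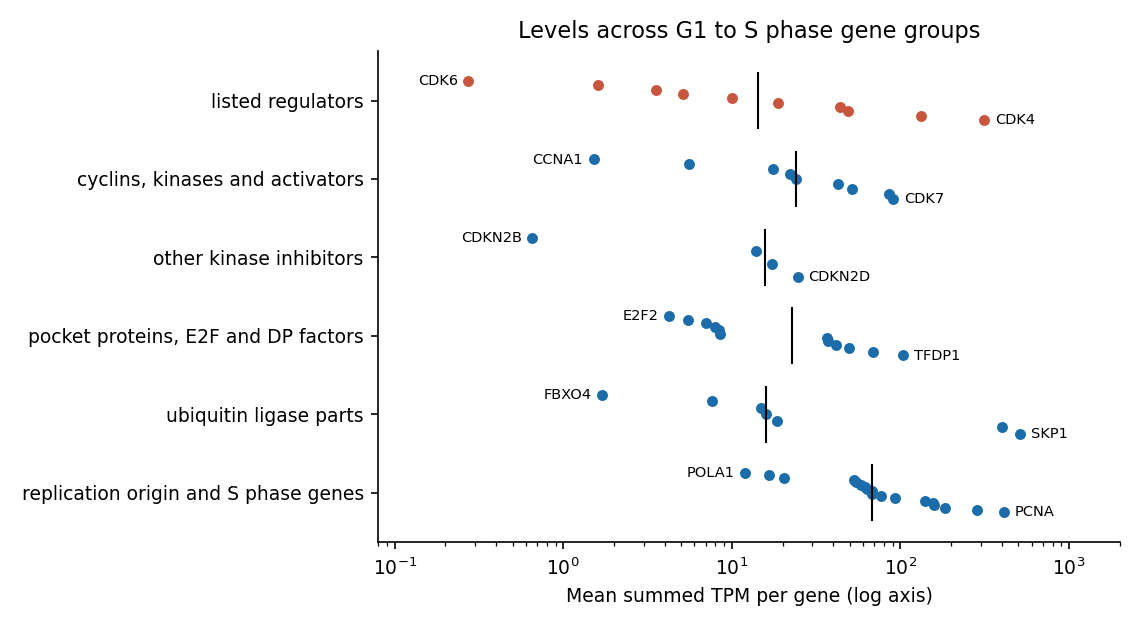
Mean summed TPM per gene (log axis) of the 10 listed regulators (red) and 50 further genes in 5 role groups (blue). Each dot is a gene, black bars are medians and the lowest and highest gene of each group are named. The listed regulators span the widest range, from CDK6 to CDK4, and the replication and S phase genes have the highest median, 67.8 TPM.

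The replicates were then compared for the 10 regulators. The test was an exact binomial test on recovered reads (edgeR, two-sided, Benjamini-Hochberg adjusted over all genes tested), which compares these libraries and not conditions. Nothing in the labels says that the replicates came from separate cultures. The test used library sizes scaled by edgeR's TMM method, while the log2 differences of CPM below use library totals. Of the 10 genes 2 passed an adjusted p of 0.05, which is 20.0%, against 13.1% of all genes tested. Both were higher in replicate 2, as were 6.78% of all genes tested, and 0 were lower, as were 6.35%. CCND1 went from 53.9 CPM to 66.9 CPM, a log2 difference of 0.31 (CPM + 1 scale, adjusted p of 2.89e-07 in the exact binomial test of edgeR). CDK4 went from 279 to 305 CPM, a log2 difference of 0.13 (adjusted p of 1.49e-06 in the same exact test). Neither difference can be checked in a further pair of libraries.

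For the other 8 genes the test did not pass the threshold, which does not show that they were equal. CCND2 had a log2 difference of -0.06 on the CPM + 1 scale. With the TMM sizes of the test its log2 ratio was -0.05 (adjusted p of 0.0828, exact binomial test in edgeR). It passed when libraries were scaled by their totals, with a log2 ratio of -0.06 (adjusted p of 0.0355, same test). By summed TPM, on the log2(TPM + 1) scale, the difference of CCND2 was -0.002. For the genes with few reads the ratio of CPM, without a pseudocount, is given with its exact 95% interval. RB1 had a log2 ratio of -0.07 (-0.44 to 0.29). CDK6 had a log2 ratio of -0.53 (-1.11 to 0.04), and CDKN2A one of -0.44 (-0.98 to 0.10). By summed TPM, on the log2(TPM + 1) scale, the difference was larger in CDKN2A, -0.79, than in CDK6, -0.15. The added 1 exceeds the TPM of CDK6, 0.338 and 0.209, and so shrinks its difference on that scale. Differences of the sizes seen in these 3 genes were not detectable at their depth. The median log2 difference of the 10 genes was -0.06, and that of all genes whose mean reached 1 CPM (13898 genes) was -0.01. Of the 50 further genes 49 could be tested and 13 passed, 26.5%, each of them higher in replicate 2, against the 6.78% of all genes tested. PCNA was among them, with 341 and 359 CPM and a log2 difference of 0.08 (adjusted p of 0.00391, exact binomial test in edgeR). The median log2 difference of the 50 genes was 0.04. Their median level was 39.2 TPM, against 12.4 TPM for the detected genes with TPM. The exact test passes smaller differences where reads are many, and the shares of genes that passed were not matched for depth.

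**Figure D5:**
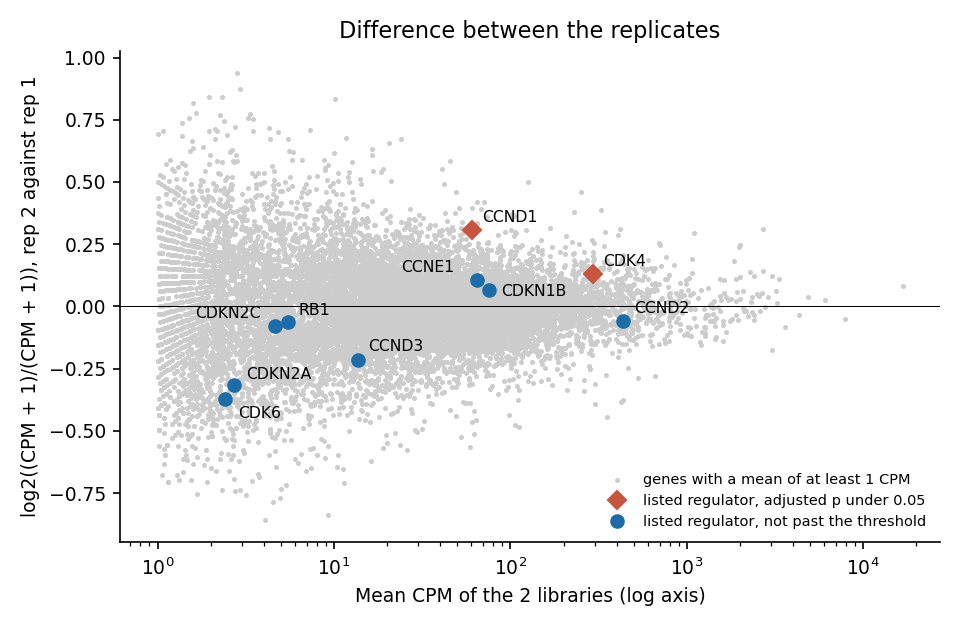
Difference between the replicates, log2((CPM + 1)/(CPM + 1)) of replicate 2 against replicate 1, by mean CPM (log axis), for all genes whose mean reached 1 CPM (grey) and the 10 regulators. CCND1 at 0.31 and CDK4 at 0.13 (red diamonds) passed the test, and the other 8 regulators (blue circles) did not.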

How the data were processed

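The authors deposited 2 tables for 2 libraries. Per the submitters' processing notes the tools were Trim Galore 0.6.10, STAR 2.7.11a, DESeq2 and Salmon 1.10.2, on GRCh38. The annotation release and the counting mode are not given in the sources used here. The deposited TPM are per transcript. The gene table has CPM in its name but holds another signal, made by the authors by dividing each count by a factor of its library: 100% of values above 0 were whole multiples of 1.02 in replicate 1 and 1.12 in replicate 2 (tolerance 1e-06), and whole reads were recovered from them. CPM was computed from those reads.

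Genes were named through the table of gene identifiers supplied with the data, and 201667 of 251955 transcripts (94.8% of TPM in each library) were assigned through GENCODE 29. The other 50288 transcripts stayed out of summed TPM. Gene coordinates are those of GENCODE 29. The recovered reads of the 10 genes were within log2 ratios of -0.53 to 0.28 of the number that TPM times transcript length predicts. Intervals (Wilson per library, exact for ratios, 95%) cover counting error only. A count of 0 allows 3 reads, 0.124 CPM in replicate 1 and 0.135 CPM in replicate 2. Replicate differences used a pseudocount of 1 CPM, which understates changes of low genes. Replicates were compared with binomTest of edgeR 4.0.16 (filterByExpr, TMM, 15299 genes). On simulated data with 200 genes changed 2-fold among 15373 tested, 99.5% were recovered and 7 unchanged genes were called. The changed genes were drawn from well-counted genes only, and the simulated noise was counting (Poisson) noise alone. The simulation thus does not cover genes with few reads, such as CDK6 and CDKN2A, or variation between libraries beyond counting. Alternatives were other scalings (DESeq2 1.42.0 size factors, totals), no filter, other detection thresholds, a pseudocount of 0.1, reads per kilobase of merged exons, protein-coding transcripts alone and each library alone. The named genes are the 10 regulators and the highest and lowest of each role group of the wider list. The genes and lists were chosen with earlier results of these data known.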

Additional observations from a re-analysis of the deposited data

How the results depend on the processing

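No paired analysis was possible because both libraries belong to the same group. The 10 regulators were detected at 0.1 CPM as at 1 CPM, and 7 of them at 5 CPM. The number of regulators past the exact binomial test in edgeR was 2, and 3 when libraries were scaled by totals, which added CCND2. With each library taken alone the share of the D-type cyclins' level ran from 10.5% to 12.6% in CCND1, from 81.7% to 82.7% in CCND2 and from 5.66% to 6.82% in CCND3, and the ratio of CDK4 to CDK6 ran from 872 to 1603. Means of 2 libraries always lie between them, so this is no test of stability. With reads per kilobase of merged exons in place of summed TPM, the mean shares were 16.5% for CCND1 (against 11.6%), 80.4% for CCND2 (against 82.2%) and 3.11% for CCND3 (against 6.24%), and the mean ratio of CDK4 to CDK6 was 487 (against 1237). The cause was not tested. On that scale the levels of 9 of the 10 genes moved by more than 1 SD. The SD is of 2 values, and the scales differ in the lengths used and the transcripts covered. The count of 9 is thus no measure of how stable single genes were. With protein-coding transcripts alone, the levels of CCND2 and CDK4 fell to 103 and 257 TPM, since transcripts of other types were left out, chiefly CCND2-204 in CCND2 and CDK4-215 in CDK4. None of the differences past the test changed sign under the alternatives tried. Depth limits CDK6, CDKN2A, CDKN2C and RB1 most, and the transcript shares have no known depth.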
